A study of Mus musculus with 8 samples.

Results

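The clustered Hox genes of the mouse were followed through 4 pools of RNA from embryonic pancreatic buds. The set held every gene whose probe set carried a single symbol made of Hox, a cluster letter from a to d and a number, which gave 37 genes among the 19938 singly named genes of the array. Hoxb8 was not in the set, because its probe set was annotated to Hoxb7 as well. The members lie in cluster A on chromosome 6 (10 genes), cluster B on chromosome 11 (9 genes), cluster C on chromosome 15 (9 genes) and cluster D on chromosome 2 (9 genes), and each was measured by 1 probe set. The VEGF pool came from fresh e12.5 buds of 3 embryos with both Pdx1-tTA, a transactivator under the promoter of the pancreatic gene Pdx1, and TET-VEGF, the VEGF transgene switched on by it. The control pool came from fresh e12.5 buds of 3 littermates with Pdx1-tTA alone. The other 2 pools held 5 wild-type buds each, explanted at e12.5 and cultured for 2 days with an agent labelled VEGFR2i, an inhibitor of VEGF receptor 2, or with vehicle. Pdx1-tTA is shared by both fresh pools and absent from both explant pools. The Pdx1 promoter is active in pancreatic epithelium, so the transgene is driven from that tissue, while the measured RNA came from whole buds.

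Hox genes encode homeodomain transcription factors that give cells along the head-to-tail axis their position. Within a cluster, genes with low paralogue numbers sit toward the 3' end and are switched on earlier and farther forward, and genes with high numbers, the AbdB class, are switched on later and farther back. Genes with the same number in different clusters are paralogues with related sequence and partly shared function. Hox proteins bind DNA together with cofactors of the Pbx and Meis families, while Hox genes respond to retinoic acid and are kept silent outside their domain by Polycomb proteins. In the foregut they are known mainly from the mesenchyme and its neural crest, while the pancreatic epithelium relies on Pdx1, a relative from the ParaHox cluster.

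Each pool was hybridized to 2 arrays as a technical repeat, so every condition was 1 pool with no biological replicate, and no test of a condition was possible. Values are log2 signals after robust multi-array averaging (RMA), a difference is between pool means, and brackets give its range over the 4 pairs of arrays, which covers technical error only. To count as higher or lower, a gene needed pool means 1.5-fold apart (0.585 in log2) and no overlap of the arrays. This is called the size rule. No Hox gene differed by that much between the arrays of a single pool, where the widest gap was 0.37, for Hoxc5 in the pool labelled VEGFR2i. The explant labels are in doubt. The endothelial cadherin gene Cdh5 read 8.65 and 8.67 in the explants labelled VEGFR2i but 4.73 and 4.40 in those labelled vehicle, and 17 of 18 endothelial markers were higher under the VEGFR2i label. An inhibitor of this receptor is known to reduce vessels, so these genes go against the labels. Both explant names are therefore used only as labels, and with 1 pool each no result on them can be given without them.

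The promoters of 4 members are printed because the values of these genes show the main patterns below. Hoxa2 was lower than in control buds in explants labelled vehicle, Hoxb4 was lower in both explant pools, Hoxd8 differed most between the explant pools, and Hoxb1 hardly varied. Each sequence is the 250 bases before the transcription start on the gene's own strand, from RefSeq on GRCm38.p6, namely chr6:52164832-52165081 (minus strand), chr11:96318017-96318266, chr2:74704365-74704614 and chr11:96365508-96365757 (all plus strand). Capitals mark matches, on either strand, to TGATNNAT, a site that Pbx and Hox proteins bind together, or to TGACAG, a Meis site.
Hoxa2: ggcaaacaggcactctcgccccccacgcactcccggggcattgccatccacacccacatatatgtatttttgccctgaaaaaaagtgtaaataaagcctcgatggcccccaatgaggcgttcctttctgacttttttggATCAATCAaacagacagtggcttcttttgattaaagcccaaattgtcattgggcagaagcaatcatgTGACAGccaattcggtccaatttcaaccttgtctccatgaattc
Hoxb4: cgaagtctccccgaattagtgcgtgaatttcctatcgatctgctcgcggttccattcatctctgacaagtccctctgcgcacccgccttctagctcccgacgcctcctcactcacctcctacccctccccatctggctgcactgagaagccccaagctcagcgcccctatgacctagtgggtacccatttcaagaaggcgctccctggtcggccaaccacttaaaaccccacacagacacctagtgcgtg
Hoxd8: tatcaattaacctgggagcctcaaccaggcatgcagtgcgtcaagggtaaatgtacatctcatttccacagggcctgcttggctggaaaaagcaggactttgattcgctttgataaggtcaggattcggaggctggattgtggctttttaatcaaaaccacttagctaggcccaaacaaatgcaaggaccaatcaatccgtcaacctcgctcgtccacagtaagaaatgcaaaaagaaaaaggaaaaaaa
Hoxb1: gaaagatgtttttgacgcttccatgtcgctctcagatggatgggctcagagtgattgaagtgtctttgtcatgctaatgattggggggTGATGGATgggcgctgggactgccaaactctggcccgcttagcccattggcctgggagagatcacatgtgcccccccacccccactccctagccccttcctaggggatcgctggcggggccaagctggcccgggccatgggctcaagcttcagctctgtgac
Hoxa2 held one match of each kind, Hoxb1 one match to the Pbx and Hox site, and the windows of Hoxb4 and Hoxd8 neither. The table listed 23 such windows for 21 of the 37 members. TGATNNAT was found for 3 of these genes (Hoxa2, Hoxb1 and Hoxd11) and in 7.68% of all 32851 promoter windows. TGACAG was found for 2 (Hoxa2 and Hoxa3) and in 15.9% of all windows. A match describes these letters only.

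Signals above the background level given below were seen in all 4 pools for Hoxa2 to Hoxa7 and, weakly, Hoxa9 in cluster A. In cluster B they were seen for Hoxb1 to Hoxb7 and Hoxb9, and in cluster C for Hoxc4 and Hoxc5. In cluster D they were weak, for Hoxd3, Hoxd8, Hoxd9 and Hoxd11, and Hoxd8 lay just beside that level in the pool labelled vehicle. The 16 members numbered 9 to 13, Hoxa9, Hoxb9, Hoxd9 and Hoxd11 among them, ran from 2.93 to 4.11 over all arrays. As a background level, each array's 95th percentile of 1015 olfactory receptor genes was used, genes with no known role in the bud, and it lay between 3.34 and 3.47. By that level 23 of 37 members were above background on both arrays of the VEGF pool, where 70.5% of all genes were, and 23 in the control pool, where 71.1% were. The count was also 23 in the pool labelled VEGFR2i, where 72.6% of all genes passed, and 23 in the pool labelled vehicle, where 72.3% passed. A total of 21 members passed in all 4 pools and 10 in none. Of the 21 members numbered 1 to 8, 17 passed in all pools, against 4 of the 16 numbered 9 to 13, and these shares are descriptions. The array has its own probes for each gene, so signals of different genes do not rank their RNA amounts. The level is lenient, and with the 99th percentile of the same genes 16 members passed in VEGF buds, 17 in control buds, 11 in explants labelled VEGFR2i and 10 in explants labelled vehicle.

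**Figure D1:**
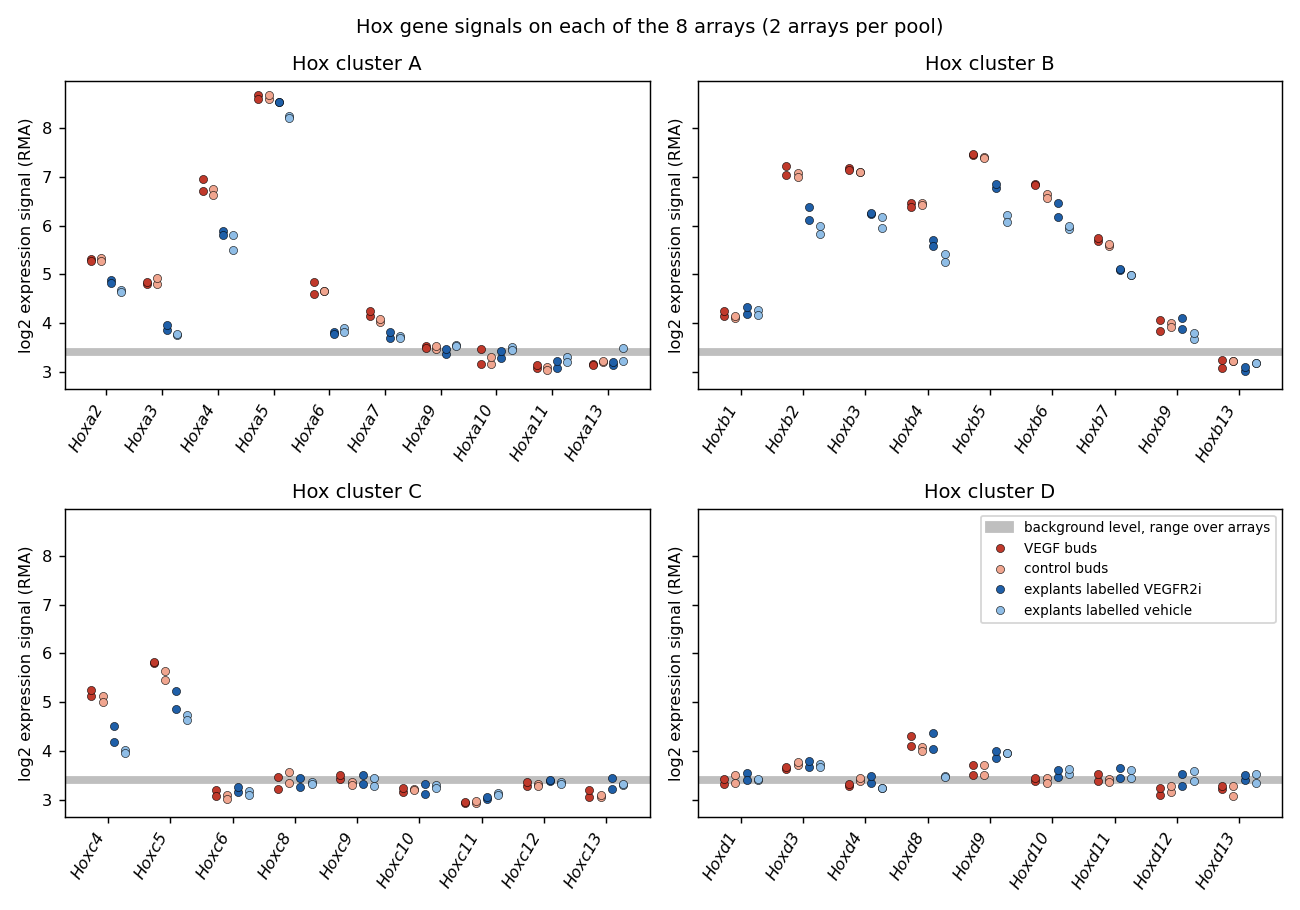
Log2 RMA signal of the 37 Hox genes on each of the 8 arrays, 1 panel per cluster with genes from low to high paralogue number, coloured by pool, with the grey band at 3.34 to 3.47 for the background level. Low-numbered genes of clusters A and B, and Hoxc4 and Hoxc5 of cluster C, stand above the band. For many of them both explant pools lie below both bud pools. Most genes numbered 9 to 13 stay close to the band, with Hoxb9 reaching 4.11 and Hoxd9 3.99.

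In cluster A, Hoxa5, a gene needed for lung and gut mesenchyme, read 8.68 and 8.60 in VEGF buds and 8.59 and 8.68 in control buds. The explants read 8.55 and 8.53 under the VEGFR2i label and 8.25 and 8.21 under the vehicle label. Hoxa4, a gene of neck vertebra identity, read 6.71 and 6.96 in VEGF buds and 6.74 and 6.63 in control buds. Hoxa2, known for patterning the second pharyngeal arch, read 5.31 and 5.28 in VEGF buds and 5.33 and 5.27 in control buds. Its neighbour Hoxa3, required for thymus and parathyroid, read 4.81 and 4.84 in VEGF buds and 4.81 and 4.92 in control buds, and Hoxa6 read 4.84 and 4.61 in VEGF buds and 4.66 and 4.65 in control buds. Hoxa7 was nearer to background, at 4.16 and 4.24 in VEGF buds and 4.03 and 4.09 in control buds. Farther toward the 5' end signals were near background. Hoxa9 lay between 3.48 and 3.53 on the fresh bud arrays, and Hoxa10, Hoxa11 and Hoxa13 between 3.03 and 3.47.

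In cluster B 8 of 9 members were above background in each pool, Hoxb13 being the exception. Hoxb2 and Hoxb3, which pattern the hindbrain, read 7.24 and 7.05 in VEGF buds and 7.08 and 7.01 in control buds, and 7.19 and 7.14 in VEGF buds and 7.10 and 7.10 in control buds. Hoxb4, known for promoting blood stem cell renewal, read 6.47 and 6.39 in VEGF buds and 6.47 and 6.42 in control buds. Hoxb5, a gene of gut and lung mesenchyme and of migrating enteric neural crest, read 7.46 and 7.47 in VEGF buds and 7.41 and 7.39 in control buds. Hoxb6, which in the mouse pancreas is known from the mesenchyme, read 6.87 and 6.83 in VEGF buds and 6.64 and 6.57 in control buds, and Hoxb7 read 5.69 and 5.76 in VEGF buds and 5.58 and 5.63 in control buds. Hoxb1, the hindbrain gene at the 3' end, stood apart from these: its pool means were 4.21 in the VEGF buds, 4.14 in the control buds, 4.26 in the explants labelled VEGFR2i and 4.22 in those labelled vehicle, so its arrays overlapped within each pair. Hoxb9 averaged 3.95 and 3.97 in the VEGF and control buds, and Hoxb13, a gene of the tail end and the prostate, stayed at or under 3.24 on all arrays.

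Clusters C and D had fewer members above background in each pool than clusters A and B. In cluster C the neighbours Hoxc4 and Hoxc5 read 5.13 and 5.25 in VEGF buds and 5.13 and 5.01 in control buds, and 5.80 and 5.83 in VEGF buds and 5.65 and 5.45 in control buds, while Hoxc6, their neighbour toward the 5' end, was below background on all 8 arrays at 3.00 to 3.26. Hoxc8 to Hoxc13 averaged between 2.94 and 3.46 in the fresh pools. In cluster D, Hoxd8 read 4.30 and 4.09 in VEGF buds and 4.08 and 3.99 in control buds. Hoxd3 averaged 3.65 and 3.74 in the VEGF and control pools. Hoxd9 averaged 3.61 in both fresh pools, 3.93 in explants labelled VEGFR2i and 3.95 in explants labelled vehicle, above background in all 4 pools. Hoxd1 and Hoxd10 averaged 3.38 to 3.58 over the 4 pools. The limb and digit genes Hoxd11, Hoxd12 and Hoxd13 averaged 3.16 to 3.54 over the 4 pools. Of the number 4 genes, Hoxa4, Hoxb4 and Hoxc4 were above background in all pools, whereas Hoxd4 averaged 3.24 to 3.41.

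The first comparison asked whether added VEGF from the Pdx1 territory went with a change in Hox expression of the bud, and none of the 37 members met the size rule. Over all genes 0.552% were higher and 0.933% lower, so a count of 0 among 37 lies near the background. The median difference of the members was 0.04 and that of all genes 0.00, with members between -0.12 (Hoxc8) and 0.27 (Hoxc5). Without the second VEGF array the median was 0.0069, so its size rests on that array. The widest differences were those of Hoxc5 (0.27 [0.15, 0.38], or 1.20-fold) and Hoxb6 (0.24 [0.19, 0.29], or 1.18-fold), each without overlap of the arrays. Hoxa5, Hoxb4 and Hoxa2 differed by 0.00, -0.01 and -0.01. In the same pools 9 of 13 epithelial markers were lower and 8 of 18 endothelial markers higher in the VEGF pool.

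Between the explant pools Hoxb5 and Hoxd8 were higher under the VEGFR2i label and no member was lower, where 1.82% of all genes were higher and 0.371% lower. Hoxb5 read 6.78 and 6.86 in explants labelled VEGFR2i, against 6.23 and 6.08 in explants labelled vehicle, a difference of 0.67 [0.55, 0.78], or 1.59-fold. Hoxd8, a gene of trunk mesoderm, read 4.38 and 4.05 under the VEGFR2i label and 3.48 and 3.46 under the vehicle label, a difference of 0.74 [0.57, 0.92], or 1.67-fold. The arrays of both explant pools did not overlap for either gene, and for Hoxd8 the vehicle arrays, though counted as above background, lay just beside it. Without the first VEGFR2i array Hoxd8 differed by 0.576 and no longer met the rule, whereas Hoxb5 stayed at 0.59 to 0.74 whichever array was left out.

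Other low-numbered members leaned the same way by less than the rule asks. Hoxc4 differed by 0.37 [0.18, 0.56], Hoxc5 by 0.35 [0.12, 0.59], Hoxb6 by 0.35 [0.18, 0.52] and Hoxb2 by 0.34 [0.12, 0.57]. Hoxa5 and Hoxb4 differed by 0.31 [0.28, 0.34] and 0.31 [0.16, 0.46]. Of the 21 members numbered 1 to 8, 20 had a positive difference, Hoxa6 (-0.06) being the exception, with a median of 0.18. Of the 16 numbered 9 to 13, of which 8 were above background in no pool, 6 were positive with a median of -0.05. Over all genes 48.1% were positive with a median of 0.00. Mesenchymal markers moved with these values, 7 of 25 being higher under the VEGFR2i label with a median of 0.25, as did 17 of 18 endothelial markers with a median of 1.71. Their part in the Hox values was not tested, and in whole buds fewer cells of a type and less RNA per cell cannot be told apart.

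**Figure D2:**
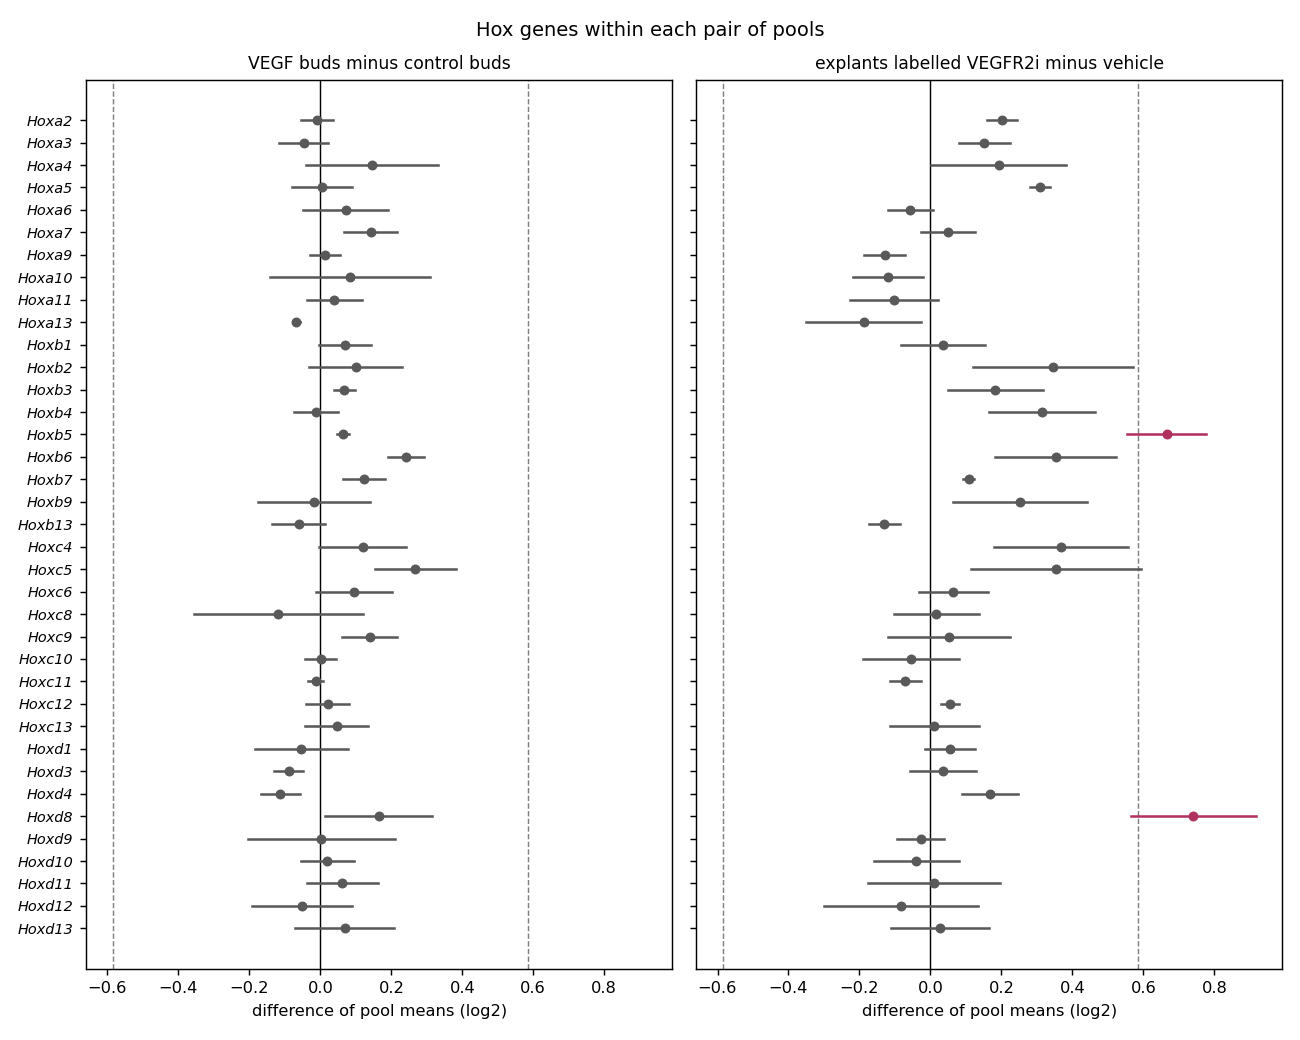
Differences of pool means (log2) for each Hox gene, VEGF minus control buds on the left and explants labelled VEGFR2i minus vehicle on the right, with lines for the range over the 4 pairs of arrays, dashed lines at plus and minus 0.58 and red for genes that met the size rule. All left-hand points lie between -0.12 and 0.27, and on the right Hoxb5 (0.67) and Hoxd8 (0.74) pass the dashed line.

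The widest differences were between explants and fresh control buds. The explants labelled vehicle had 12 members lower and none higher, all numbered 2 to 7 and all from clusters A, B and C. Over all genes 4.08% were lower and 17.9% higher in that pool, and among the 14820 genes above background in at least 1 of these pools, 5.49% were lower. Explants also differ from these buds by 2 days of culture, by genotype and possibly by a separate normalization, which cannot be told apart here. The median of all genes was 0.17 higher in the explants, and relative to that shift the decreases are wider. Of all genes past the rule 81.5% were higher, a share of 64.0% after centring each array on its median and 57.0% after quantile normalization. The count of lower Hox genes was 14 under both, with Hoxa5 and Hoxd8 added. Lower genes among all 19938 numbered 814 as deposited, 1279 after centring and 1487 after quantile normalization, so that background rose as well.

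In cluster B, Hoxb5 read 6.78 and 6.86 in explants labelled VEGFR2i, 6.23 and 6.08 in explants labelled vehicle and 7.41 and 7.39 in control buds. Its difference was -1.24 [-1.33, -1.16] for vehicle explants over control buds, or 2.37-fold lower, and -0.579 for explants labelled VEGFR2i, just short of the rule. Hoxb2 read 6.39 and 6.11 in explants labelled VEGFR2i, 6.0 and 5.82 in explants labelled vehicle and 7.08 and 7.01 in control buds, with a difference of -1.13 [-1.26, -1.01] for the vehicle label. Both explant pools lay below the buds on every array for both genes. Hoxb4 read 5.71 and 5.58 in explants labelled VEGFR2i, 5.25 and 5.42 in explants labelled vehicle and 6.47 and 6.42 in control buds, a difference of -1.11 [-1.22, -1.0] for the vehicle label. For Hoxb3 the arrays read 6.24 and 6.27 in explants labelled VEGFR2i, 6.19 and 5.95 in explants labelled vehicle and 7.10 and 7.10 in control buds, a difference of -1.03 [-1.15, -0.91] for the vehicle label. In all 4 of these genes the pool labelled VEGFR2i was nearer to the buds than the pool labelled vehicle. Hoxb6 gave 6.46 and 6.18 in explants labelled VEGFR2i, 5.94 and 6.0 in explants labelled vehicle and 6.64 and 6.57 in control buds, a difference of -0.64 [-0.70, -0.57] for the vehicle label. Hoxb7 gave 5.09 and 5.11 in explants labelled VEGFR2i, 4.99 and 5.00 in explants labelled vehicle and 5.58 and 5.63 in control buds, a difference of -0.61 [-0.64, -0.58] for the vehicle label, which became -0.5845 and missed the rule without the second control array.

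In cluster A, Hoxa3 read 3.86 and 3.97 in explants labelled VEGFR2i, 3.75 and 3.78 in explants labelled vehicle and 4.81 and 4.92 in control buds, a difference of -1.10 [-1.17, -1.03] for the vehicle label, or 2.15-fold lower. Hoxa4 read 5.89 and 5.81 in explants labelled VEGFR2i, 5.81 and 5.51 in explants labelled vehicle and 6.74 and 6.63 in control buds, a difference of -1.03 [-1.24, -0.82] for the vehicle label. Explant and bud arrays of these genes did not overlap. For Hoxa6 the arrays read 3.82 and 3.78 in explants labelled VEGFR2i, 3.90 and 3.81 in explants labelled vehicle and 4.66 and 4.65 in control buds, a difference of -0.80 [-0.85, -0.75] for the vehicle label, and for Hoxa2 they read 4.89 and 4.83 in explants labelled VEGFR2i, 4.67 and 4.65 in explants labelled vehicle and 5.33 and 5.27 in control buds, a difference of -0.64 [-0.68, -0.60]. Hoxa5 and Hoxa7 differed less, by -0.41 [-0.47, -0.34] and -0.34 [-0.39, -0.30] for the vehicle label. In cluster C, Hoxc4 read 4.51 and 4.19 in explants labelled VEGFR2i, 4.01 and 3.95 in explants labelled vehicle and 5.13 and 5.01 in control buds, a difference of -1.09 [-1.18, -1.0] for the vehicle label. Hoxc5 read 5.24 and 4.86 in explants labelled VEGFR2i, 4.75 and 4.64 in explants labelled vehicle and 5.65 and 5.45 in control buds, a difference of -0.86 [-1.01, -0.71]. Both sit at the 3' end of the measured cluster C genes and read below the control buds on every explant array. In cluster D, Hoxd8 read 4.38 and 4.05 in explants labelled VEGFR2i, 3.48 and 3.46 in explants labelled vehicle and 4.08 and 3.99 in control buds, so that the pool labelled vehicle lay below the control buds by a difference of -0.57 [-0.62, -0.51], just short of the rule, while the pool labelled VEGFR2i overlapped them.

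Explants labelled VEGFR2i had 7 members lower than control buds and none higher, where 2.52% of all genes were lower and 17.7% higher. They were Hoxa3 (-0.95), Hoxa6 (-0.86), Hoxb3 (-0.85), Hoxa4 (-0.84), Hoxb4 (-0.80), Hoxb2 (-0.79) and Hoxc4 (-0.72). Hoxc4 became -0.57 and missed the rule without the second VEGFR2i array. The count was 11 after centring on array medians and 12 after quantile normalization. Among all 19938 genes, 503 were lower as deposited, 903 centred and 1135 after quantile normalization, so that background rose as well. The share of higher among all genes past the rule was 87.5% as deposited, 71.2% centred and 61.8% after quantile normalization. Both comparisons with control buds share that pool, and the vehicle pool also enters the comparison of the explants, so these values are not independent. The 21 members numbered 1 to 8 had a median difference of -0.64 under the vehicle label and -0.44 under the VEGFR2i label. The 16 numbered 9 to 13 had medians of 0.15 and 0.09, near the 0.17 of all genes, with no member past the rule. Only 4 of these 16 were above background in the control buds, so a decrease could hardly be seen for the others. The widest among these 16 was Hoxd9, at 0.34 [0.24, 0.45] for the vehicle label and 0.32 for the VEGFR2i label. In the control buds these 16 read 2.94 to 4.01, the highest being Hoxb9 with 4.01 and 3.93.

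**Figure D3:**
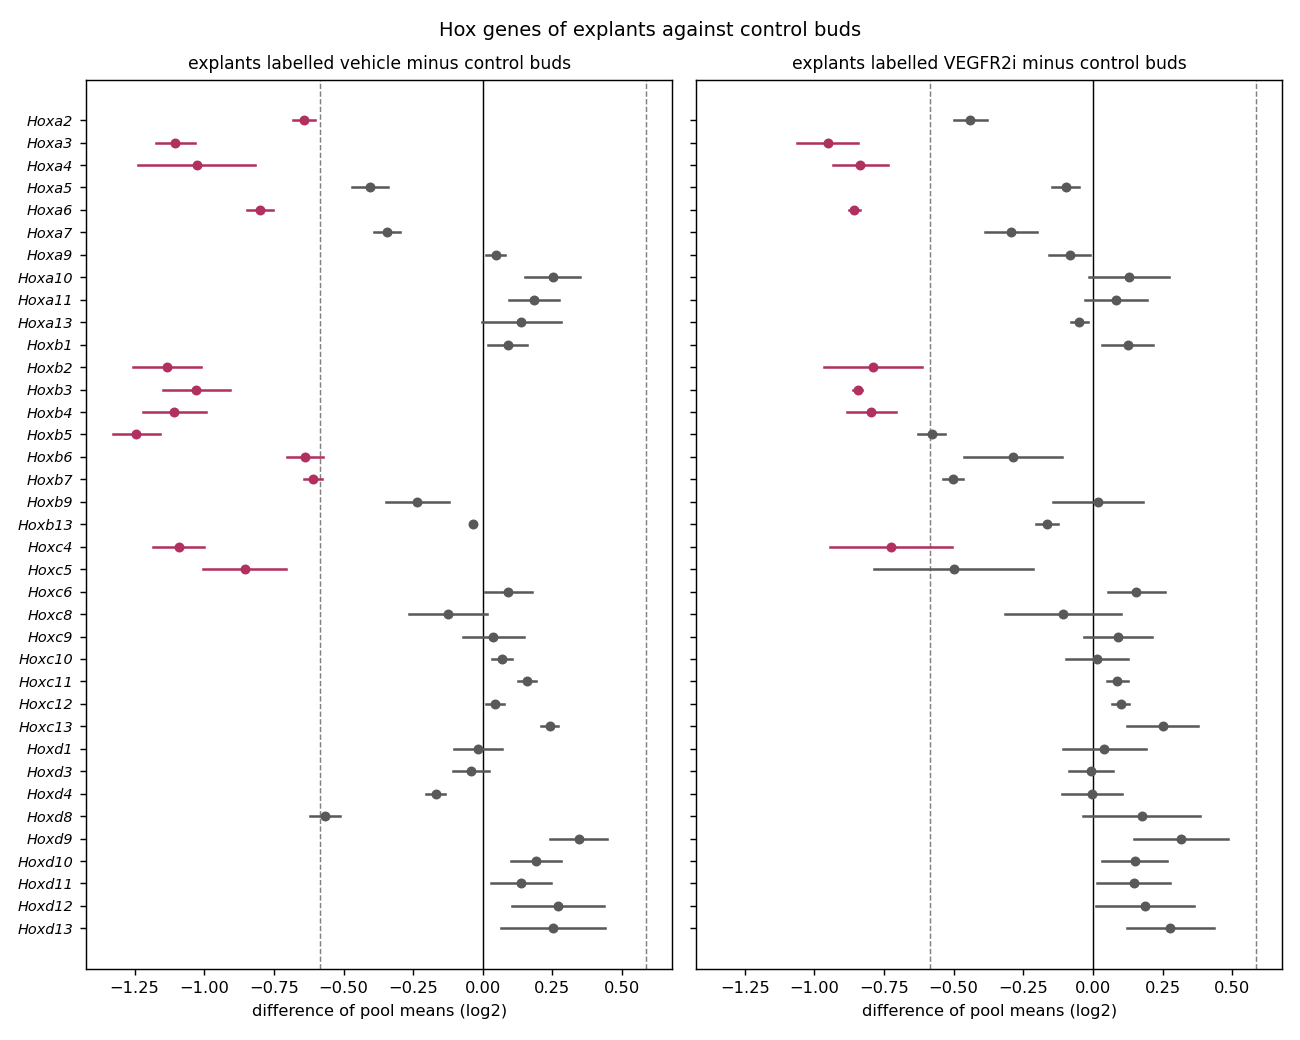
Differences of pool means (log2) of explants minus control buds for each Hox gene, vehicle label on the left and VEGFR2i label on the right, with lines for the range over the 4 pairs of arrays, dashed lines at plus and minus 0.58 and red for genes that met the size rule. Red points are all on the lower side and all belong to genes numbered 2 to 7, reaching -1.24 for Hoxb5 on the left and -0.95 for Hoxa3 on the right.

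Genes that work with or regulate Hox genes were counted by the same rule. Of 10 measured cofactor genes, none met the rule between VEGF and control buds (median 0.03) or between the explant pools (median 0.06). In vehicle explants over control buds 1 of 10 was lower, where 4.08% of all genes were, with a median of -0.04. That gene was Pknox2, a Meis relative, which read 4.91 and 4.90 in explants labelled VEGFR2i, 4.36 and 4.38 in explants labelled vehicle and 6.49 and 6.42 in control buds. Its difference of -2.08 for the vehicle label exceeded that of every Hox member, and between the explant pools it was 0.54. Meis1, a partner of Hox and Pbx proteins, differed by -0.50 for the vehicle label. Among 21 Polycomb and trithorax genes, which silence or maintain Hox loci, none met the rule in either pair (medians -0.01 and 0.10), and in the vehicle explants Ring1 (0.77) and Ezh1 (0.65) were higher than in control buds, 2 of 21 where 17.9% of all genes were, with a median of 0.20.

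Of 17 measured retinoic acid genes, none met the rule between VEGF and control buds (median -0.01), and between the explant pools 1 was lower under the VEGFR2i label, Aldh1a1 (-0.90), a retinoic acid synthesis enzyme (median 0.03). In vehicle explants over control buds 5 were lower and 1 higher, against 4.08% and 17.9% of all genes, with a median of 0.05. The 5 were the binding protein Crabp2 (-1.88), the synthesis enzyme Rdh10 (-1.48), the degrading enzyme Cyp26b1 (-0.98), and the receptors Rxrg (-0.66) and Rarb (-0.63), and Aldh1a1 was higher by 3.36. Aldh1a2, the main synthesis enzyme of embryonic mesenchyme, differed by 0.43. Of 9 axial patterning genes, which set Hox domains earlier in the embryo, none met the rule in the fresh pair (median -0.04). Egr2 (1.04) was higher under the VEGFR2i label, 1 of 9 where 1.82% of all genes were (median -0.05). Gmnn (0.74) and Egr2 (0.67) were higher in vehicle explants than in control buds, 2 of 9 where 17.9% of all genes were (median 0.15).

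Cell type markers moved in the same comparisons, and their part in the Hox values was not tested. Over all genes 17.9% were higher and 4.08% lower in vehicle explants over control buds. Among the markers, 11 of 13 epithelial ones were higher in that comparison (median 1.30). There 18 of 18 endothelial (median -2.58), 6 of 8 red cell (median -2.72) and 4 of 10 leukocyte markers (median -0.41) were lower. Their summed signals, on the log2 scale, were 13.84 to 13.87 against 12.54 to 12.56 for epithelium and 9.11 to 9.19 against 11.8 on both control arrays for endothelium. The 25 mesenchymal markers were split, with 10 lower and 3 higher and a median of -0.26. Their summed signal was 14.08 to 14.12 in the vehicle explants and 13.98 to 13.99 in the control buds. That sum adds unlogged signals and so follows the brightest genes, while 16 of the 25 had a negative difference. It does not measure the amount of mesenchyme. Tlx1, the spleen primordium gene (-2.10), and the homeobox gene Hlx (-1.47) were lower. Lum (3.23) and Dcn (1.91), which encode matrix proteoglycans, were higher. Of 10 markers of neural crest and neurons 6 were higher and 2 lower (median 0.75), of 10 mesothelial markers 3 higher and 1 lower (median 0.25), and of 10 gut, liver and spleen markers 2 higher and 4 lower (median -0.16). Red cells and leukocytes each had 1 marker higher as well.

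In the other pairs the same lists differed as follows. Over all genes 0.552% were higher and 0.933% lower between VEGF and control buds, and 1.82% and 0.371% between the explant pools. Between VEGF and control buds 5 of 10 mesothelial markers (median 0.47), 6 of 8 red cell markers (median 1.02) and 3 of 10 gut, liver and spleen markers (median 0.26) were higher. In that pair the mesenchymal list had 1 higher and 2 lower (median 0.12), leukocyte markers had none past the rule (median 0.10), and neural markers had 3 lower (median -0.14). The epithelial median was -0.66 and the endothelial median 0.55. Between the explant pools 9 of 10 leukocyte markers (median 0.88) and 2 of 8 red cell markers (median 0.15) were higher under the VEGFR2i label, as were 1 of 10 neural markers and 1 of 10 gut, liver and spleen markers (medians -0.00 and 0.00). No epithelial (median -0.15) or mesothelial (median 0.03) marker met the rule there. RMA signals have no 0, but 17 of 18 endothelial and 5 of 8 red cell markers were still above background in the vehicle explants, and 24 of 25 mesenchymal markers were so in every pool.

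**Figure D4:**
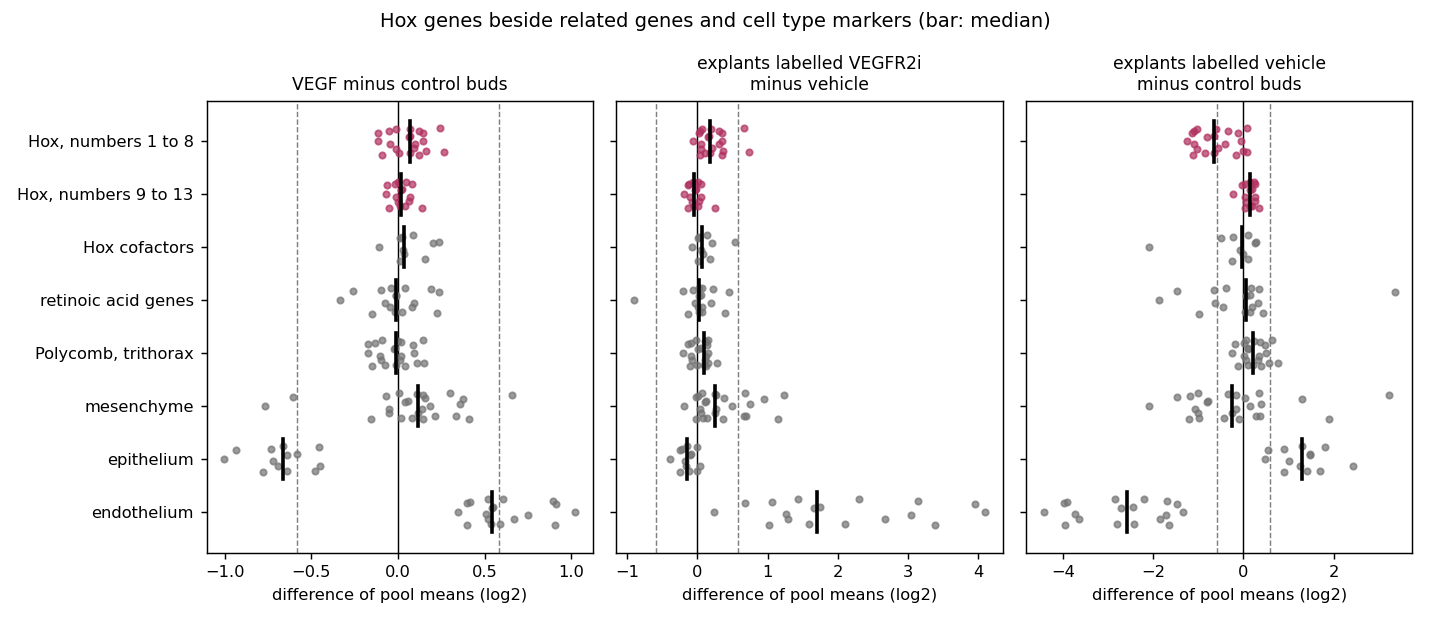
Differences of pool means (log2) for Hox genes numbered 1 to 8 and 9 to 13 (red) and for 6 other gene lists (grey) in 3 comparisons, 1 point per gene, with a black bar at each list's median and dashed lines at plus and minus 0.58. Hox genes numbered 1 to 8 have medians of 0.07, 0.18 and -0.64 from left to right, against 0.55, 1.71 and -2.58 for endothelium and -0.66, -0.15 and 1.30 for epithelium.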

How the data were processed

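Total RNA of the 4 pools was isolated with a QIAGEN kit and read on Affymetrix gene arrays for the mouse (version 1.0 ST), per the labels' protocols. The authors deposited log2 signals normalized by RMA in Partek Genomic Suite 6.5, as their design text states. The values run from 2.41 to 13.6, as log2 signals do. Array medians over 35399 probe sets were 4.08 to 4.12 for the fresh buds and 4.29 to 4.33 for the explants, and the sources used here do not state whether both sets were normalized together.

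Gene names came from the annotation of the platform, where 21789 probe sets had 1 symbol, 1621 several and 11989 were not listed. For genes with several probe sets the one with the highest mean over the 8 arrays was kept. All 37 Hox members matched a RefSeq table of GRCm38.p6 by Entrez ID, used for names and chromosomes. The size rule was checked on simulated arrays. Since the arrays of a pool are technical repeats, the methods' t-test and limma 3.58.1 on arrays (R 4.3.3) were run as alternatives only, and no p-value is printed. Precision is limited by the single pool of each condition, since the 2 arrays of a pool show technical error only. Analyses used Python 3.11.15.

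The members and the 16 other gene lists (187 of 205 members measured) were chosen with earlier results of these data known. Named genes were all members, plus list members past the size rule or among the 4 widest differences of a list; Aldh1a2 was chosen after its values were seen. The split into numbers 1 to 8 and 9 to 13 follows the AbdB class and was made after the values were seen.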

Additional observations from a re-analysis of the deposited data

How the results depend on the processing

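No member met the size rule between VEGF and control buds under any alternative tried, but several of these counts could only be 0. The widest difference was 0.27 (Hoxc5), and the 2-fold limit, the background filter, the methods' t-test and limma all kept or raised the size limit. The adjusted t-test called 0 genes higher and 0 lower among all 19938 in this pair. The looser fold limit, the rescaled arrays and the left-out arrays could have given another count, and also gave 0. Between the explant pools the count of 2 became 0 at 2-fold, 6 at the looser limit and 1 to 2 with an array left out. It was 2 with limma and with the methods' t-test unadjusted, and 0 with that t-test after Benjamini-Hochberg adjustment. Between the explant pools the adjusted t-test called 0 genes higher and 1 lower among all 19938, so its 0 is not particular to the Hox genes. For vehicle explants over control buds the count of 12 became 7 at 2-fold. For explants labelled VEGFR2i over control buds the count of 7 became 0 at 2-fold, 11 at the looser limit, 11 with arrays centred on their medians and 12 with quantile normalization. The members' median difference between VEGF and control buds was 0.04, and 0.06 after centring or over members above background and 0.0069 to 0.0526 with an array left out. Between the explant pools it was 0.05, and 0.17 over members above background. It was -0.0109 without the second and 0.114 without the first VEGFR2i array, so its sign depends on 1 array. It was -0.04 for vehicle explants over control buds, and -0.25 after centring, -0.20 after quantile normalization, -0.57 over members above background and -0.0795 to -0.0336 with an array left out. For explants labelled VEGFR2i over control buds it was -0.01, and -0.20, -0.14, -0.29 and -0.08999 to -0.0146 under the same changes. With the array median as the background level, 15 members passed in the VEGF buds, 13 in the control buds and 10 in each explant pool, and with the 99th percentile 11 passed in the explants labelled VEGFR2i and 10 in those labelled vehicle, in place of 23. The other alternatives left these counts within 1.5-fold, except that averaging probe sets could change nothing, since each member has 1. Dim genes, 1 pool per condition and 2 arrays per pool limit what can be seen, and no paired fit applies because the arrays are technical repeats.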

Other observations

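The probe set annotated to both Hoxb8 and Hoxb7 is not a member. It read 3.76 and 3.87 in explants labelled VEGFR2i, 3.59 and 3.42 in explants labelled vehicle, 4.67 and 4.66 in VEGF buds and 4.56 and 4.61 in control buds. Its difference was -1.08 for vehicle explants over control buds.

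Transcripts made from within the clusters were mostly dim. Of 6 microRNA genes of the clusters only Mir615, which lies in cluster C, was above background, at 5.03 and 5.54 in the VEGF buds, 5.17 and 5.19 in the control buds, 5.37 and 5.49 in the explants labelled VEGFR2i and 5.59 and 5.37 in those labelled vehicle. None of the 6 met the size rule in any of the 3 comparisons (medians 0.03 for VEGF over control buds, -0.03 for the explant pools and 0.11 for vehicle explants over control buds). Mir10a and Mir10b, which lie beside the number 4 genes of clusters B and D, averaged 3.01 and 2.75 in the control buds, and such probe sets measure precursors, not mature microRNAs. Of 4 noncoding RNAs of the clusters none met the rule either (medians -0.02, -0.05 and -0.08), and Hoxaas2 differed by -0.37 for vehicle explants over control buds.

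Among 6 ParaHox genes Pdx1 was the only one past the rule, higher by 1.47 in vehicle explants over control buds (list medians 0.02, -0.03 and 0.27 in the same order of comparisons). Of 10 genes next to the clusters or related to Hox genes, Mnx1, a pancreatic and motor neuron homeobox gene, was the only one past the rule. It was higher by 0.90 in vehicle explants over control buds (list medians -0.01, -0.07 and 0.14). In that comparison 17.9% of all genes were higher, so 1 of 6 and 1 of 10 lie near or under the share of all genes. These values are set across fresh and cultured tissue and carry the same limits as the Hox values.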
